A study of Homo sapiens with 6 samples.

Results

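The kallikrein-related peptidase genes KLK5, KLK6, KLK7, KLK8, KLK9, KLK10, KLK11 and KLK13 and the inhibitor gene SPINK5 were examined in transfected clones of KYSE150, a human cell line established from a squamous carcinoma of the oesophagus. The 9 genes were chosen by name, with earlier results on these files known, in which KLK6 and KLK8 were lower in clones carrying NCCRP1. The values that separate the groups are therefore given as a description. All 9 genes had a row among the 40448 Entrez gene IDs of each library. Of these, 5 (KLK5, KLK6, KLK8, KLK9 and KLK10) were above 0 in at least 1 library, and 4 (KLK7, KLK11, KLK13 and SPINK5) were listed at 0 in all 6 libraries.

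RNA was taken from 3 mock clones (1, 4 and 5), which carried the empty pIRES2-EGFP vector, and from 3 clones (1, 6 and 17) stably transfected to express human NCCRP1, whose product resembles the substrate-binding part of some F-box proteins. Values are given below in the clone order 1, 4 and 5 for the mock group and 1, 6 and 17 for the NCCRP1 group. Each clone was 1 separately labelled stable transfectant and gave 1 library, so differences between groups include differences between clones. Ribosomal RNA was depleted from DNase-treated total RNA before Ion Torrent sequencing. The deposited values were log2 RPKM, the logarithm of reads per kilobase of transcript, scaled to library depth. None lay below 0, so that a gene under 1 RPKM appeared as 0. A 0 could also stand for a gene without an estimate, since TPT1 and UBB, which every cell uses, were listed at 0 in all 6 libraries.

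Tissue kallikrein-related peptidases are secreted serine proteases encoded side by side on chromosome 19. They are made as inactive precursors and activate one another in a cascade. In stratified squamous epithelium KLK5, a trypsin-like protease, activates other members, including the chymotrypsin-like KLK7, and together they cleave the cell junctions that hold the outermost cells. SPINK5, on chromosome 5, encodes LEKTI, a secreted inhibitor of several of these proteases, and its loss causes Netherton syndrome.

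The promoters of the 4 members above 0 that had an entry (KLK5, KLK6, KLK9 and KLK10) are shown because these are the detected genes whose levels are compared below. Each is the 250 bases before the most upstream listed start site, read 5′ to 3′ on the minus strand of GRCh38.p14 as RefSeq gives it, and capitals mark every match to the motifs searched. They lie at chr19:50953039-50953288 (KLK5), chr19:50969592-50969841 (KLK6), chr19:51009593-51009842 (KLK9) and chr19:51019862-51020111 (KLK10). The 8 kallikrein members lie on chromosome 19 and an entry was found for 8 of the 9 genes, KLK8 being without.
KLK5: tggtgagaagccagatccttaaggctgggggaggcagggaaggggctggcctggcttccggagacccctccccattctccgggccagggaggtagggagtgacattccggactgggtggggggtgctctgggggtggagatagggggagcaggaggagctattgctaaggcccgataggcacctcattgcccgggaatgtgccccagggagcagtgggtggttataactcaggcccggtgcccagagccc
KLK10: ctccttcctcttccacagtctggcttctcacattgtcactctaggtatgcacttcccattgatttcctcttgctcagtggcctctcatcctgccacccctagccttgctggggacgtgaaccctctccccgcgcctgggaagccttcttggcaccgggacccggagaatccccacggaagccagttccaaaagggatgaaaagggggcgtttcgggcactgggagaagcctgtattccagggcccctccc
KLK6: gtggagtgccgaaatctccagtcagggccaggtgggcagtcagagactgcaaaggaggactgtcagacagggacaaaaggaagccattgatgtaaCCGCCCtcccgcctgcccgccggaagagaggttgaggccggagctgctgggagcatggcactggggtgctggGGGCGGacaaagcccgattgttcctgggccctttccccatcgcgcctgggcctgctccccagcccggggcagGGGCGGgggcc
KLK9: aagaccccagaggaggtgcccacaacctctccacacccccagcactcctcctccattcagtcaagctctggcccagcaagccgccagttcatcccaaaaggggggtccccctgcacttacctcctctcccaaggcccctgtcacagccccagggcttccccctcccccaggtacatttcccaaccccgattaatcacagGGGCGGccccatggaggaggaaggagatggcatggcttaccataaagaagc
The motifs searched on both strands were the GC box GGGCGG, the TATA box TATAAA, the CCAAT box CCAAT, the AP-1 site TGANTCA, the steroid receptor partial site TGTTCT and the grainyhead site AACCNGTT. Overlapping matches were counted separately. KLK6 held 3 GC boxes, starting 155, 83 and 11 bases before the start, KLK9 held 1 at 51 bases, and KLK5 and KLK10 held no match to any of the 6 motifs in these windows. Over the 35116 windows of that length in the table, 42.6% held a GC box, 10.7% a TATA box, 32% a CCAAT box, 6.57% an AP-1 site, 12.4% a steroid receptor partial site and 1.49% a grainyhead site. The CpG count was 6 for KLK5, 8 for KLK10, 12 for KLK6 and 3 for KLK9, against a median of 11 over the table, and the G+C content was 64.8%, 59.2%, 66.8% and 61.2%, against 58%.
Among the members listed at 0, KLK7 held 2 GC boxes, KLK13 held 2 GC boxes and 1 CCAAT box, and KLK11 held no match. SPINK5, with a G+C content of 41.6%, held a TATA box that matched on both strands, 1 steroid receptor partial site and 1 grainyhead site.

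Libraries held 12477 to 12821 genes above 0. The depth read from the whole-read steps of microRNA genes was 12290000 to 18070000 reads, and the 12737 genes with a value above 0 in 3 or more libraries were tested. Nothing in the labels says that the clones were grown and extracted independently, so the p-values reflect no more than the spread among 6 libraries, which may be technical. NCCRP1 was listed at 0 in every mock clone and read 6.19, 8.07 and 6.71 on the log2 RPKM scale in the NCCRP1 group. All 9 squamous markers were above 0 in every library, except that SOX2 was listed at 0 in NCCRP1 clone 6. KRT5 was at 9.54 to 10.86. By contrast, 18 of 20 markers of fibroblasts, endothelium, immune and glandular cells were listed at 0 in every library. The exceptions were COL1A1 (1.32 to 2.57) and CDH5 (0.66 in NCCRP1 clone 6 and otherwise listed at 0). The names under which the values were deposited carry a number, 15 or 14, read here as the sequencing run. No sample label states that meaning. Run 15 held mock clones 1 and 4 with NCCRP1 clone 1, and run 14 held the other 3 clones.

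All 5 detected kallikrein genes were lower in each of the 3 NCCRP1 clones than in all mock clones. Such a separation downward was seen for 7.05% of all 12737 tested genes. By limma over all genes, 2 of the 9 members (KLK6 and KLK8), of which 5 were tested, were past an adjusted p of 0.05. Both had a lower mean in NCCRP1 clones. Of all tested genes, 0.0314% (4 genes, KLK6 and KLK8 included) were past it in that direction. The members were chosen with this contrast known, and nothing is read from these counts. KLK8 passed the filter on low values only through the mock clones. The count of members past the threshold was 0 with the run as a term, with log2(RPKM + 0.1), and without mock clone 1, mock clone 5 or NCCRP1 clone 17, and it was 1 without a filter and without NCCRP1 clone 6.

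**Figure D1:**
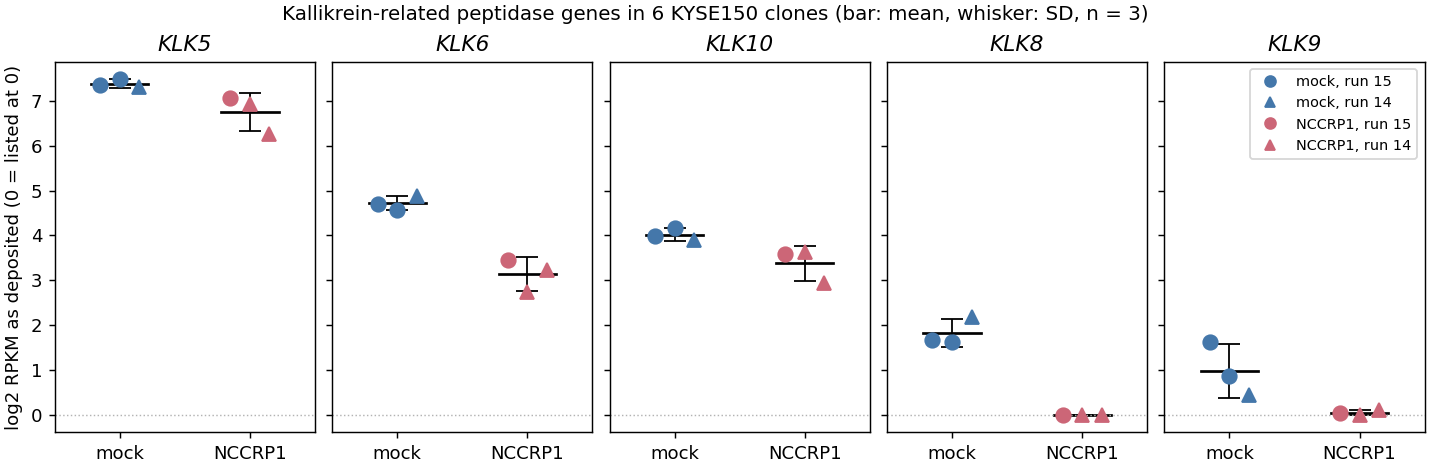
Deposited log2 RPKM (vertical axis) of the 5 detected kallikrein genes in 3 mock and 3 NCCRP1 clones (horizontal axis), 1 point per clone, circles for run 15 and triangles for run 14, with the mean and SD. Each gene is lower in all 3 NCCRP1 clones than in the 3 mock clones, and KLK8 is listed at 0 in all 3 NCCRP1 clones.

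KLK5 had the highest level of the members in every clone. Its log2 RPKM was 7.35, 7.49 and 7.32 in the mock group and 7.07, 6.93 and 6.26 in the NCCRP1 group. The groups did not overlap, but only 0.24 separated the lowest mock from the highest NCCRP1 clone, and clone 17 stood below the other NCCRP1 clones. The means were 7.39 ± 0.09 and 6.75 ± 0.44 (SD, n = 3 each), a log2 difference of -0.63 (SE 0.26), or 0.645 times the mock level. Within run 15 the difference was -0.35 and within run 14 it was -0.72, and without NCCRP1 clone 17 it was -0.38. In every clone KLK5 stayed in the upper range of expressed genes: 96% to 96.7% of genes above 0 stood at or below it in mock clones and 91.8% to 95.1% in NCCRP1 clones.

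KLK10, which encodes a kallikrein-related peptidase first described as an epithelial gene lost in breast cancer cells, followed KLK5 closely. It was at 3.98, 4.17 and 3.90 in the mock group, against 3.58, 3.63 and 2.93 in the NCCRP1 group. Again the groups did not overlap and clone 17 was lowest. The means were 4.01 ± 0.14 and 3.38 ± 0.39 (SD, n = 3 each), a log2 difference of -0.63 (SE 0.24), or 0.645 times the mock level. The difference was -0.49 within run 15, -0.62 within run 14 and -0.41 without NCCRP1 clone 17.

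Within a library KLK5 exceeded KLK10 by nearly the same factor whatever the clone. The log2 difference KLK5 minus KLK10 was 3.38, 3.33 and 3.42 in the mock group and 3.49, 3.30 and 3.33 in the NCCRP1 group, which is 9.85-fold to 11.3-fold on the RPKM scale. The means of this log2 difference, 3.38 ± 0.05 and 3.37 ± 0.10 (SD, n = 3 each), overlapped between the groups. Over the 6 libraries the 2 genes correlated with Pearson r = 0.987, and after each group's mean was removed with r = 0.967, both given as a description of 6 libraries that differ in group and depth. The 2 genes are not direct neighbours: KLK6, KLK7, KLK8 and KLK9 lie between them in RefSeq order.

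KLK6, a trypsin-like protease also named neurosin, did not keep its distance from the others. It was at 4.70, 4.57 and 4.89 in the mock group, against 3.46, 2.73 and 3.24 in the NCCRP1 group. The gap of 1.11 between the groups exceeded the range within either of them, and the lowest value was in clone 6, not clone 17. Within run 15 the log2 difference was -1.18 and within run 14 it was -1.91, around -1.58 (SE 0.23) over all clones, a 2.99-fold lower level. Its place among genes above 0 went from 71.6% to 77.1% of genes at or below it in mock clones to 35.5% to 50.9% in NCCRP1 clones.

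The spacing of KLK6 to its relatives therefore differed between clones. KLK5 minus KLK6 was 2.42 to 2.93 in mock clones and 3.02 to 4.20 in NCCRP1 clones, without overlap, so that KLK5 stood 5.37-fold to 7.61-fold above KLK6 in the former and 8.11-fold to 18.4-fold in the latter. KLK6 exceeded KLK10 by 0.40 to 1.00 on the log2 scale in all 3 mock clones. In NCCRP1 clones 1 and 6 it was below KLK10, at -0.12 and -0.90, and in clone 17 it was 0.31 above. After each group's mean was removed, KLK6 correlated with KLK5 at r = -0.129 and with KLK10 at r = -0.374 over the 6 libraries, again as a description.

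**Figure D2:**
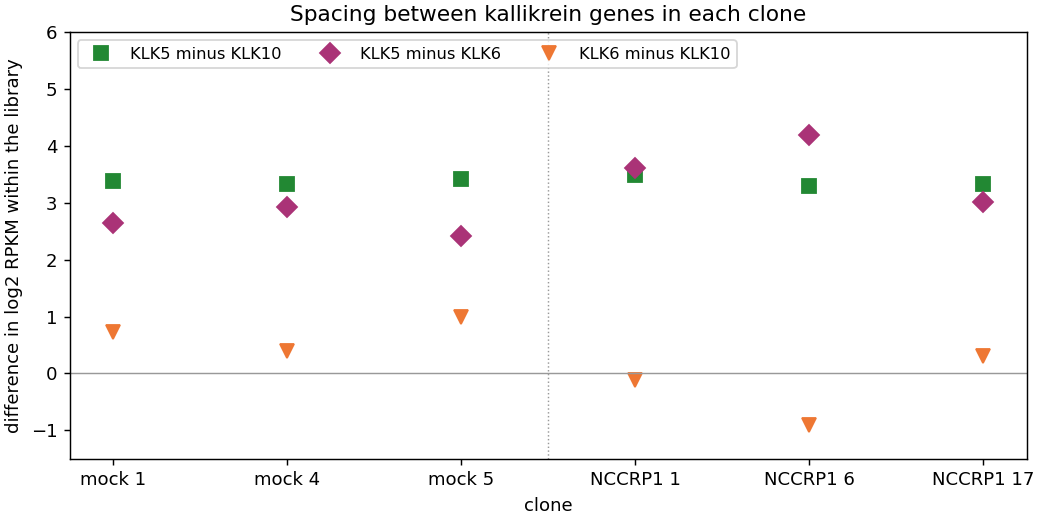
Difference in log2 RPKM (vertical axis) between pairs of kallikrein genes within each library, with the 6 clones along the horizontal axis and 1 marker per pair and clone. KLK5 minus KLK10 stays between 3.30 and 3.49, while KLK5 minus KLK6 is 2.42 to 2.93 in the mock and 3.02 to 4.20 in the NCCRP1 group.

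KLK8, also named neuropsin, a trypsin-like protease of the epidermis and the brain, was above 0 in the mock clones only. It was at 1.66, 1.63 and 2.18 in the mock group (3.16, 3.09 and 4.52 RPKM) and listed at 0 in all 3 NCCRP1 clones. The mock values rest on about 51, 52 and 95 reads, taking the estimated depth and the longest GENCODE v29 transcript, of 1324 bases. On the same reckoning 1 RPKM would be 19 to 24 reads in the NCCRP1 clones. No fold change is given against a listed 0, and a level under 1 RPKM in the NCCRP1 clones was not detectable in these values.

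KLK9, the least studied of the detected members, stood near the lower limit of the files. It was at 1.62, 0.87 and 0.44 in the mock group, 0.04 in NCCRP1 clone 1 and 0.11 in clone 17, and listed at 0 in clone 6. The groups did not overlap, but the mock clones ranged over 1.18, and mock clone 5 stood only 0.33 above the highest NCCRP1 clone. The mean of the listed values was 0.97 ± 0.60 in mock clones (SD, n = 3), and the log2 difference of the listed values was -0.93 over all clones, -1.21 within run 15, -0.38 within run 14 and -0.61 without mock clone 1. Its values above 0 rest on about 12 to 28 reads for a transcript of 754 bases. In GENCODE v29 another protein-coding gene overlaps both KLK8 and KLK9 on their strand, so reads of the 2 genes could be shared. Their values are uncertain for that reason. Another annotated gene overlaps KLK6 on its strand, so its reads could be shared as well. Antisense genes overlap all 5 detected members there, and whether the authors' counting used strand is not given in the sources used here.

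The order of the levels, per kilobase, was KLK5, KLK6, KLK10, KLK8 and KLK9 in the mock clones. Neighbours in that order did not overlap between KLK5, KLK6, KLK10 and KLK8, whereas the lowest KLK8 value (1.63) and the highest KLK9 value (1.62) were almost equal. In the NCCRP1 clones KLK5 was again highest, KLK10 (3.38 ± 0.39) and KLK6 (3.14 ± 0.37) did not differ beyond their spread, and KLK9 and KLK8 were at or near 0. Summed over the 5 genes, the level was 211, 227 and 210 RPKM in the mock group and 159, 141 and 94.5 RPKM in the NCCRP1 group. KLK5 made up 76% to 79.5% of that sum in mock and 80.9% to 86.5% in NCCRP1 clones, KLK6 10.4% to 14.2% and 4.71% to 9.96%, and KLK10 7.09% to 7.92% and 7.53% to 8.78%. In bulk RNA, fewer cells expressing a gene and less RNA per cell cannot be told apart.

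Side by side with the transgene, the lowest KLK6 value (2.73) was in NCCRP1 clone 6, which had the highest NCCRP1 level (8.07). KLK5 and KLK10 were lowest in clone 17, where NCCRP1 was at 6.71. Of the 9 squamous markers, 7 had a lower mean in NCCRP1 clones, where 53.3% of all tested genes did, and none passed limma's test (lowest adjusted p = 0.631). The groups overlapped for all but PKP1, a desmosomal plaque gene (6.17 to 6.20 in mock clones and 5.73 to 6.06 in NCCRP1 clones). Over all tested genes, 7.05% were lower without overlap. The summed level of the markers was 1470 to 1860 RPKM in the mock and 932 to 2170 RPKM in the NCCRP1 group. Of the 9, KRT5, KRT14, KRT6A, KRT17 and DSG3 had their lowest value in NCCRP1 clone 17, the clone lowest in KLK5 and KLK10, while TP63, SOX2 and PKP1 had theirs in clone 6 and DSC3 in mock clone 1. The part of these markers in the kallikrein differences was not tested.

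The genes listed at 0 included the inhibitor. SPINK5 was listed at 0 in all 6 libraries, where 1 RPKM would be 45 to 66 reads for its longest transcript of 3656 bases. KLK7, the chymotrypsin-like partner of KLK5 in skin, KLK11 and KLK13 were listed at 0 likewise. Among the 15 KLK genes of the cluster, 10 were listed at 0 in every library, including all 7 that are not members (KLK1, KLK2, KLK3, KLK4, KLK12, KLK14 and KLK15). The detected genes KLK5, KLK6, KLK8, KLK9 and KLK10 lie in 1 stretch of the RefSeq order, interrupted by KLK7.

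Genes flanking the cluster were examined next to see whether a wider stretch of chromosome 19 was lower. Of the 20 tested genes on each side, 25 of 40 had a lower and 15 a higher mean in NCCRP1 clones, against 53.3% of all tested genes with a lower mean. Their median log2 difference was -0.065, against -0.016 over all tested genes, and none passed limma's test (lowest adjusted p = 0.325). Without overlap between the groups, 4 of the 40 were lower and 1 was higher in NCCRP1 clones, against 7.05% and 5.71% of all tested genes. The 4, named after their values were seen, were MYH14, SNAR-B2, SNAR-B1 and CNOT3, with log2 differences of -0.70, -0.90, -0.81 and -0.17, the nearest of them 14 tested genes from the cluster. With 10 genes on each side the median was -0.021, and no gene had every NCCRP1 clone below or above every mock clone. The nearest tested gene after KLK14, CTU1, which encodes a tRNA-modifying enzyme subunit, had means of 2.59 ± 0.21 in the mock and 2.70 ± 0.04 in the NCCRP1 group (SD, n = 3 each), followed by ETFB and ZNF175 with log2 differences of 0.23 and 0.06. On the KLK1 side the nearest were the small nucleolar RNA genes SNORD88C, SNORD88A and SNORD88B, with log2 differences of -0.44, -0.01 and -0.22.

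**Figure D3:**
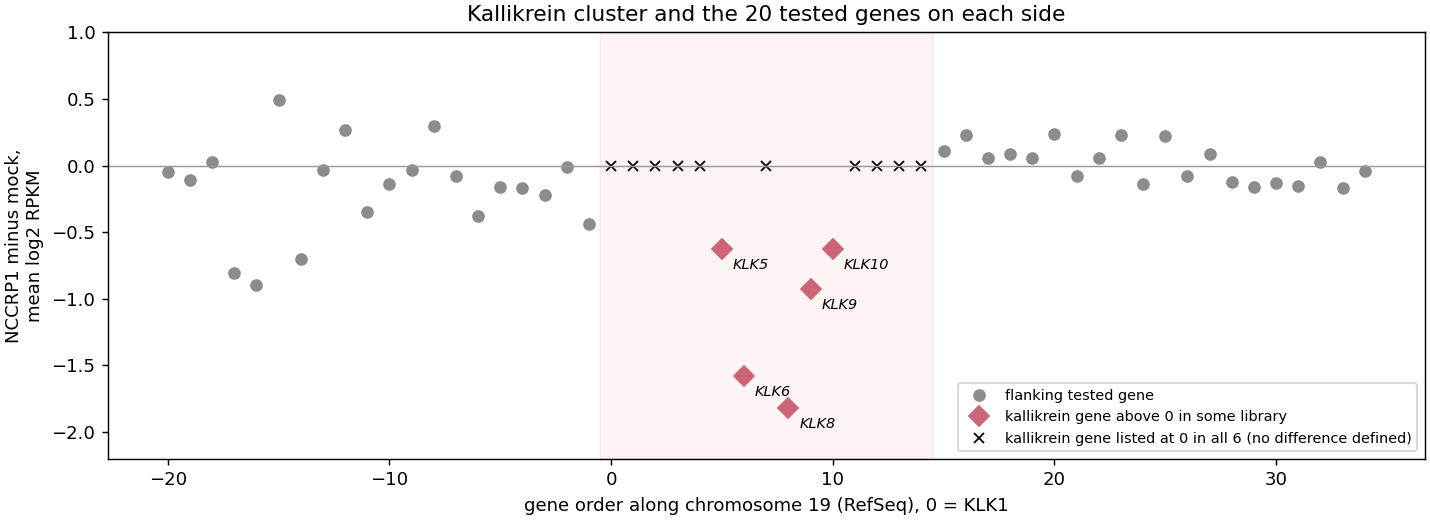
NCCRP1 minus mock difference of mean log2 RPKM (vertical axis) for the KLK genes and the 20 tested genes on each side, by their order along chromosome 19 (horizontal axis). The 5 detected KLK genes lie between -0.63 and -1.82, crosses are genes listed at 0 in all 6 libraries, and the flanking genes have a median of -0.065.

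The 40 tested genes around SPINK5 on chromosome 5 had a median log2 difference of 0.04 and none passed limma's test. The nearest tested genes on one side included FBXO38, which encodes an F-box protein, with a log2 difference of 0.07, and ABLIM3 with 0.23. On the other side they included RBM27 and LARS1, with differences of -0.09 and 0.05.

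Genes linked to the kallikrein cascade were taken from 4 lists of 65 genes in all: other inhibitors of serine proteases, other epithelial and extracellular proteases, receptors and substrates, and nuclear receptors. Of these, 32 were tested and none passed limma's test over all genes (adjusted p of 0.35 and above, where 0.102% of all tested genes passed). Of the 32, 6 had an unadjusted limma p under 0.05, a larger share than the 7.33% of all tested genes. The lists were chosen with earlier results of these data known. Beside the counts of higher and lower means below, 53.3% of all tested genes had a lower mean in NCCRP1 clones. Nothing is read from those counts. Of the 19 inhibitor genes, 12 were listed at 0 in all libraries and 6 were tested, 5 with a higher and 1 with a lower mean in NCCRP1 clones (median log2 difference 0.26). SERPINA3, which encodes antichymotrypsin, was at 0.71, 2.12 and 0.73 in the mock group and 1.77, 3.93 and 3.79 in the NCCRP1 group (limma adjusted p = 0.583). The groups overlapped, and the gene passed only without NCCRP1 clone 1 (limma adjusted p = 0.0477). SLPI, a secreted leukocyte protease inhibitor that acts on KLK7, had means of 5.53 ± 0.30 in the mock and 6.00 ± 0.33 in the NCCRP1 group (SD, n = 3 each). SPINT1 and SPINT2, membrane-bound inhibitors of matriptase, had log2 differences of 0.24 and 0.28.

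Of the 17 other protease genes, 9 were tested, 6 with a higher and 3 with a lower mean (median 0.245). TMPRSS13, a membrane-anchored serine protease, was at 1.79, 2.05 and 1.97 in the mock group and 2.29, 2.83 and 2.98 in the NCCRP1 group (limma adjusted p = 0.35). The groups did not overlap, as for 5.71% of all tested genes upward. The plasminogen activator genes PLAU (4.84 ± 0.26 and 5.30 ± 0.26) and PLAT (3.39 ± 0.11 and 3.66 ± 0.19, SD, n = 3 each) had overlapping groups. PRSS22 had a log2 difference of 0.44. ST14, which encodes matriptase, an activator of kallikrein precursors, was at 5.55 ± 0.20 and 5.79 ± 0.11. Its groups did not overlap either, though narrowly (at most 5.67 in mock and at least 5.69 in NCCRP1 clones). This gene was named after its values were seen.

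Among the 17 receptor and substrate genes, 11 were tested, 9 with a higher and 2 with a lower mean (median 0.134). L1CAM, an adhesion molecule that KLK8 cleaves in the nervous system, was at 5.83, 6.06 and 5.32 in the mock group and 6.36, 6.28 and 6.22 in the NCCRP1 group, without overlap (limma adjusted p = 0.479). Over all tested genes, 5.71% were higher without overlap. The urokinase receptor gene PLAUR and the thrombin receptor gene F2R had log2 differences of 0.61 and -0.26, with overlap. F2RL1, which encodes protease-activated receptor 2, the receptor that KLK5 and KLK6 can cleave, stood at 4.09 ± 0.28 and 4.15 ± 0.28 (SD, n = 3 each); it too was named after its values were seen. The desmosomal substrates DSG1 and DSC1 were listed at 0 in all libraries, and CDSN, the corneodesmosin gene, was at 1.54 to 2.19.

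Of the 12 genes for steroid, vitamin D and retinoid receptors, 6 were listed at 0 in all libraries and 6 were tested (median -0.013). RXRA, a retinoid X receptor, was at 4.93, 5.03 and 4.96 in the mock group and 4.27, 4.70 and 4.65 in the NCCRP1 group, lower without overlap (limma adjusted p = 0.502). RARG, RXRB and VDR had log2 differences of -0.14, 0.11 and -0.02. RXRB was higher without overlap, though narrowly (at most 4.36 in mock and at least 4.38 in NCCRP1 clones). Such a separation was seen downward for 7.05% and upward for 5.71% of all tested genes.

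**Figure D4:**
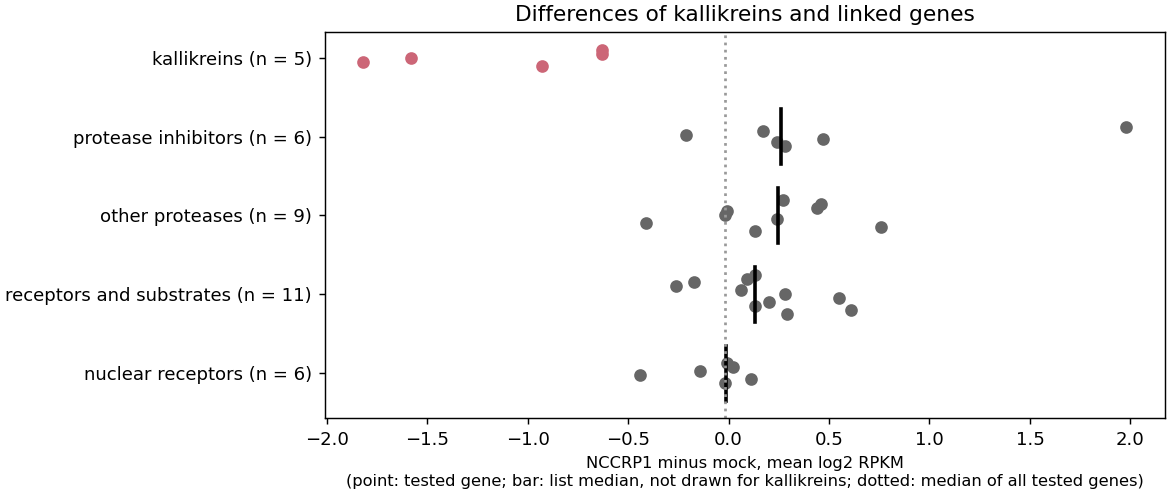
NCCRP1 minus mock difference of mean log2 RPKM (horizontal axis) for each tested gene of the kallikrein members and of the 4 linked lists (rows), with the list medians as bars and the median of all tested genes, -0.016, as a dotted line. The kallikrein members were chosen with this contrast known and carry no median, and the linked lists have medians of -0.013 to 0.26.

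The likeness of other genes to the members was measured as Pearson's r over the 6 libraries among 9664 genes above 0 in every library that averaged log2 RPKM 2 or more, and it takes no account of the size of the change. KLK10 stood behind only 4 of these genes in likeness to KLK5, and KLK5 behind 1 in likeness to KLK10. Those most like KLK5 outside the family were SMG5 (r = 0.994), ALG1L1P (r = 0.992), MLKL (r = 0.990), AGAP2 (r = 0.987) and WWOX (r = 0.982), with log2 differences between groups of -0.08 to -1.02. For KLK10 they were SMG5 (r = 0.990), KIF9-AS1 (r = 0.982), MLKL (r = 0.981), CIDEB (r = 0.977) and ALG1L1P (r = 0.969). For KLK6 those that came first included MRC2 (r = 0.985), an endocytic collagen receptor gene, NDRG4 (r = 0.975), MPC1 (r = 0.972) and MLLT1 (r = 0.970). KLK5 and KLK10 came behind 611 and 714 genes in likeness to KLK6.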

How the data were processed

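The authors deposited 1 log2 value per Entrez gene ID and library, under the header RPKM per the file headers. The scale was checked: 2 to the power of the value, times the longest GENCODE v29 transcript in kilobases, summed to 1130000 to 1150000 per library, whereas natural logarithms gave at least 11550000. The submitters' processing notes name hg19 and bedtools 2.25.0 without their roles, and the aligner is not given in the sources used here. Groups were compared on these values by limma 3.58.1 (R 4.3.3), with no other term in the model, a trended and robust prior, two-sided p-values and Benjamini-Hochberg adjustment over 12737 genes above 0 in 3 or more libraries (threshold 0.05). The test was tested on simulated data with independent noise, where changed genes were drawn from those averaging log2 RPKM 2 or more. Genes as low as KLK8 were not among the changed ones, and the outcome is not reported here. Symbols of 37997 IDs came from RefSeq (GRCh38.p14), and gene order from the same table. Depth came from microRNA values of up to 8 steps, of which 24.2% to 34.5% lay within 0.005 of a whole step. Too few were whole to recover counts.

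The members and lists were chosen with earlier results of these data known. All members were named, and from each linked list up to 4 tested genes with the lowest p, with the 5 genes most like each member in all 6 libraries and the nearest 3 tested neighbours per side. Some genes that these rules select are not reported here. Alternatives covered the filter, pseudocount, scaling, variance model, run, a listed 0 as missing and each clone left out.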

Additional observations from a re-analysis of the deposited data

How the results depend on the processing

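No paired analysis was possible, because the clones are separately labelled transfectants. The clone number 1 that both groups share does not pair 1 clone with the other. The difference of each detected kallikrein gene was below 0 in all 82 recomputed values. Since the groups did not overlap for these genes, leaving a clone out or comparing within a run could not change that sign. The filter and the variance model leave a difference as it is, so nothing is read from the count of signs. Of the 82 values, 75 moved by less than the spread between clones, the unmoved ones included. The others were KLK6 within run 15 (-1.18) and run 14 (-1.91), KLK8 with log2(RPKM + 1) (-2.18), with log2(RPKM + 0.1) (-5.18) and within run 14 (-2.18), and KLK9 with log2(RPKM + 0.1) (-2.02) and within run 14 (-0.38). With a clone left out, the differences ran from -0.79 to -0.38 for KLK5, -1.74 to -1.37 for KLK6, -1.92 to -1.64 for KLK8, -1.20 to -0.61 for KLK9 and -0.76 to -0.41 for KLK10. A pseudocount acts on a listed 0, which sets the size for KLK8 and KLK9. Where a listed 0 was missing, KLK8 had no value to test.

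Calls were less stable than values, and the cause was not tested. Members past the threshold numbered 2, but 1 with no filter (KLK8), 1 among genes above 0 in all 6 libraries (KLK6), 1 with a listed 0 as missing (KLK6), 0 with log2(RPKM + 0.1), 0 with the run as a term, and 0 to 2 with a clone left out. Over all genes, 9 were higher and 4 lower. With no filter these were 1 and 2, above 0 in all libraries 5 and 2, with log2(RPKM + 1) 2 and 2, with log2(RPKM + 0.1) 1 and 0, with the run as a term 2 and 0, and with a listed 0 as missing 1 and 1. With robust=FALSE 2 were higher. With a clone left out, 0 to 24 were higher and 0 to 5 lower, and 0 to 1 linked gene passed. The values of KLK9 rest on few reads, and the files cannot show levels under 1 RPKM.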
